A study of Mus musculus with 4 samples.

Results

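Imprinted genes are the subject of this report: 36 genes whose symbols were taken as a fixed list of loci known to be imprinted in the mouse, out of 56980 genes in the count table. The 36 genes fell into 18 clusters or single loci, with 13 genes expressed from the maternal and 23 from the paternal allele by general knowledge. Mesenchymal stromal cells (MSCs) were sorted from the bone marrow of 4 male wild-type C57BL/6J mice of a colony long inbred in-house, aged 14 weeks, with 100 cells a library. Cells without CD45, Ter119, CD31 and Sca1 and with CD51 and PDGFRa were taken, and complementary DNA was made from polyadenylated RNA. No allele was deleted and no agent was given, and all 4 libraries formed 1 group, so no contrast between groups was possible. Levels are given as TPM, in which counts are divided by gene length and scaled to 1000000 in each library. In an inbred strain the parental chromosomes carry the same sequence, so the parental allele was not measured here and is given only as background.

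The libraries held between 22738604 and 43545349 counts on genes, with between 16109 and 18907 genes detected. The genes of the sort antigens PDGFRa (Pdgfra) and CD51 (Itgav) reached 39.8 ± 7.29 and 15.7 ± 2.51 TPM (SD, n = 4). The niche genes Lepr and Cxcl12 reached 65.4 ± 39.0 and 2154 ± 1556 TPM. Bglap and Ibsp, typical of osteoblasts, were far more abundant, at means of 107207 and 13931 TPM. The osteoblast genes Alpl and Sp7, at means of 744 and 226 TPM, were below Cxcl12. Summed, these 4 osteoblast genes made up 108982, 133635, 77792 and 168024 TPM in mice 1 to 4. The part of osteoblast-like cells in the levels of the imprinted genes was not tested. Of the antigens sorted against, Ly6a, a gene of Sca1, had 1, 120, 0 and 144 counts in mice 1 to 4 (8.95 TPM in mouse 2 and 11.6 TPM in mouse 4), and Ptprc, the gene of CD45, had 2, 2, 0 and 50 counts. The endothelial markers had at most 15 counts in any library in sum. The summed erythroid markers were lowest in mouse 2 (35.0 TPM) and highest in mouse 1 (4980 TPM), although Ter119+ cells were gated out. In these bulk samples fewer expressing cells and less RNA per cell cannot be told apart. The molecules were amplified by PCR without molecular identifiers, so a count of 0, which allows up to 3 counts, covers counting error only.

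Genomic imprinting restricts transcription to the maternal or the paternal chromosome. Germ-line DNA methylation at imprinting control regions sets this choice, and many clusters hold a long noncoding RNA whose transcription keeps its neighbours on the same chromosome silent. Imprinted genes are best known for the control of fetal growth, and many of them are turned down in tissues after birth. In somatic stem and stromal cells several of them, such as H19, Dlk1 and Grb10, are known as regulators of quiescence or growth factor signalling.

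In these adult MSCs 12 of the 36 imprinted genes had a median above 1 TPM, and 2 of them, Sgce and Grb10, had a median above 10 TPM. Over all 52125 genes with a known length 22.9% had a median above 1 TPM, and over the protein-coding genes it was 44.2%, against 11 of the 30 protein-coding imprinted genes. The median of the 36 medians was 0.159 TPM, beside 0.135 TPM over all 21922 protein-coding genes. Above 1 TPM in every mouse were 8 imprinted genes: Sgce, Grb10, Igf2r, Impact, Ube3a, Plagl1, Gnas and Peg3. This was 8 of 36 genes, with 15.4% over all genes with a length. Snurf, Magel2, Zim1, Phlda2 and Rtl1 had 0 counts in all 4 mice, and 22 of the 36 genes had 0 counts in at least 1 mouse. Zeros were common over all genes as well, since no library detected more than 18907 of the 56980 genes. That is a share per library, and the share of all genes with 0 counts in at least 1 mouse was not computed.

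**Figure D1:**
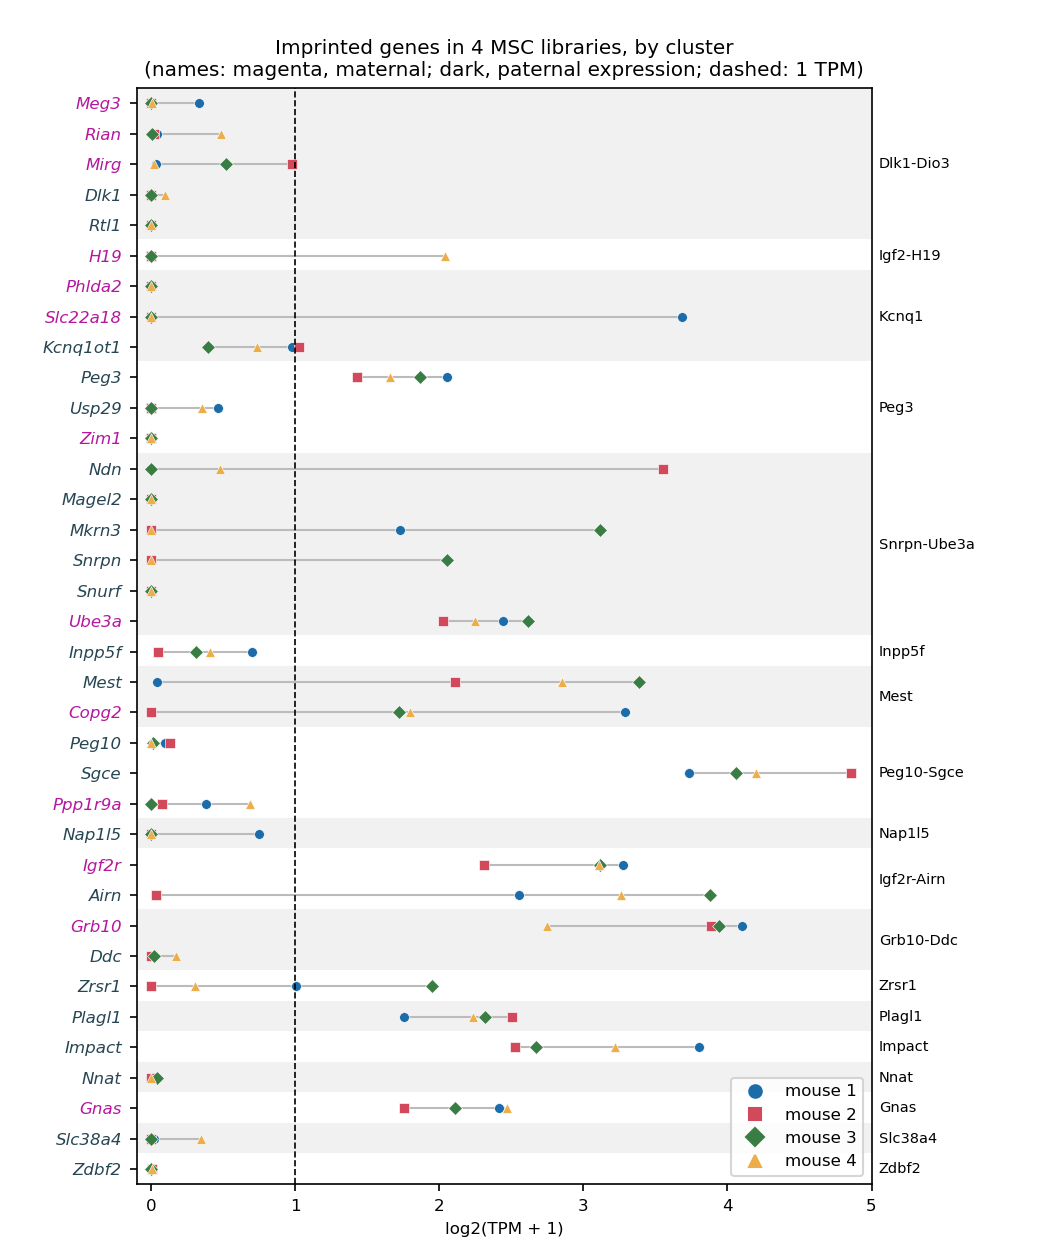
Level of each of the 36 imprinted genes in each of the 4 mice on the log2(TPM + 1) scale, grouped by cluster, with a grey line from the lowest to the highest mouse and the 1 TPM mark dashed. Sgce and Grb10 reach the highest medians, 16.5 and 14.1 TPM, while Slc22a18, Ndn, Mkrn3, Copg2, Mest and Airn spread from near 0 to above 7 TPM.

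Of the members grouped as maternally expressed, Grb10, Igf2r, Gnas and Ube3a were above 1 TPM in every mouse. This grouping is general knowledge that need not hold in every tissue, and the allele used by these cells was not measured. Grb10, an adaptor that dampens insulin and insulin-like growth factor receptor signalling, stood at 16.2, 13.8, 14.4 and 5.72 TPM in mice 1 to 4 (12.5 ± 4.64, SD). Mouse 4 was lowest, at under 50% of each other mouse, and 3 mice lay close together. Igf2r, the receptor that takes insulin-like growth factor 2 to the lysosome, stood at 8.69, 3.96, 7.66 and 7.64 TPM (6.99 ± 2.08), with mouse 2 below the others. Gnas, which encodes the stimulatory G protein alpha subunit downstream of the parathyroid hormone receptor, stood at 4.34, 2.38, 3.32 and 4.53 TPM (3.64 ± 0.998). Of its 24 annotated transcripts 10 share over 50% of their exonic bases with genes on the other strand, and read pairs on such bases are left unassigned by default. Ube3a, a ubiquitin ligase imprinted in neurons, stood at 4.44, 3.07, 5.13 and 3.76 TPM (4.10 ± 0.885). It shares 27.3% of its exonic bases with genes of the other strand, among them 9330162G02Rik with 189, 388, 93 and 169 counts, and 8 of its 18 transcripts share over 50%. Its levels had the smallest relative spread of the 12 genes, with a coefficient of variation of 21.6%.

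Of the 36 genes, the paternally expressed Sgce had the highest mean and median. Sgce encodes epsilon-sarcoglycan, a membrane protein of the dystrophin-associated complex, and stood at 12.3, 28.1, 15.7 and 17.4 TPM (18.4 ± 6.79), above 92.3% of all genes with a length by its median. Mouse 2 was highest, and the ranges of Sgce and Grb10 overlapped, and in mouse 1 both Grb10 and Impact were above Sgce. Impact, an inhibitor of the amino acid sensor GCN2, stood at 12.95, 4.75, 5.37 and 8.30 TPM (7.84 ± 3.74). Plagl1, a zinc finger regulator of a network of imprinted genes, stood at 2.37, 4.67, 3.98 and 3.70 TPM (3.68 ± 0.963). Peg3, a zinc finger protein of growth and maternal behaviour, stood at 3.15, 1.69, 2.64 and 2.16 TPM (2.41 ± 0.628). For these 3 genes no mouse lay far from the rest, though mouse 1 was highest for Impact and lowest for Plagl1. The coefficients of variation of the 8 genes above 1 TPM in every mouse ran from 21.6% to 47.7%, beside medians of 89.6% over all 8584 genes with a mean between 1 and 10 TPM and 42.4% over the 4673 genes between 10 and 100 TPM. Being above 1 TPM in every mouse itself favours genes of small spread, so these values are a description.

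The sum over the 23 paternally expressed genes was 41.8, 54.4, 65.2 and 48.7 TPM in mice 1 to 4 (52.5 ± 9.91), and that over the 13 maternally expressed genes 54.9, 24.2, 33.2 and 28.3 TPM (35.1 ± 13.7). The paternal sum was the larger in mice 2, 3 and 4 and the smaller in mouse 1, where Slc22a18 and Copg2 were high. The 2 sums run over unlike numbers of genes, so they do not compare the level per gene. A median above 1 TPM was found for 7 of the 23 paternally (30.4%) and 5 of the 13 maternally expressed genes (38.5%), beside 22.9% of all genes with a length. Sgce and Grb10 together made up 29.5%, 53.2%, 30.6% and 30.0% of the summed TPM of all 36 genes. With the longest transcript of each gene as its length the paternal sum was 76.7 TPM.

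**Figure D2:**
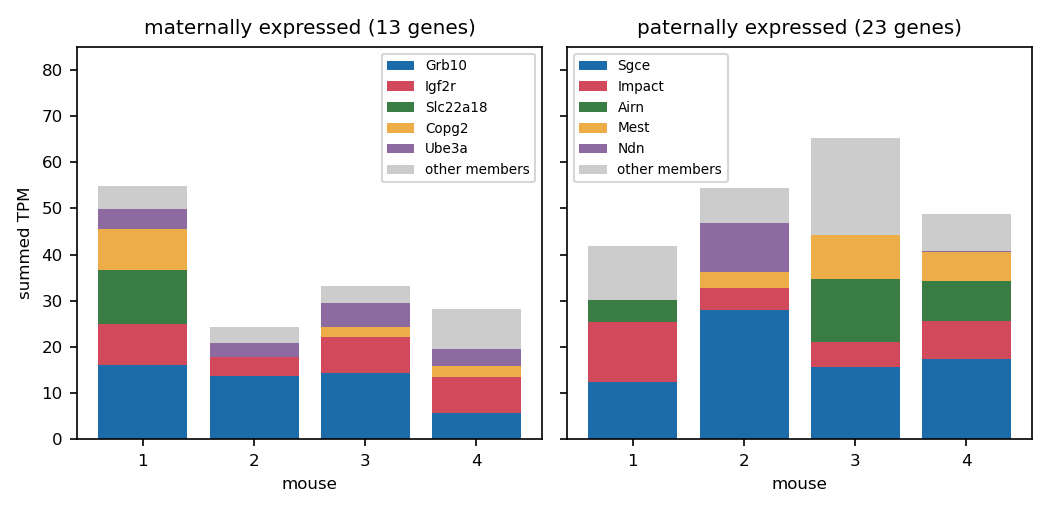
Summed TPM of the maternally (left) and paternally (right) expressed genes in each mouse, stacked by the 5 genes named in each panel and all others. The maternal sum is highest in mouse 1, at 54.9 TPM with Slc22a18 and Copg2, and the paternal sum is highest in mouse 3, at 65.2 TPM.

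In the Dlk1-Dio3 cluster on chromosome 12 none of the 5 genes had a median above 1 TPM. Its 3 maternally expressed noncoding RNAs each had their most counts in a different mouse. Meg3, the long RNA that starts the cluster's maternal transcription unit, had 83, 0, 0 and 1 counts, or 0.261 TPM in mouse 1. Rian, a host of small nucleolar RNAs, had 9, 3, 2 and 76 counts, and Mirg, a host of microRNAs, had 3, 79, 55 and 1 counts. The mouse with the most counts was thus mouse 1 for Meg3, mouse 2 for Mirg and mouse 4 for Rian. Of the paternally expressed genes, Dlk1, a Notch ligand homologue that restrains adipogenic differentiation, had 0, 0, 0 and 4 counts, and Rtl1, a retrotransposon-derived gene, had none. The 8 small nucleolar RNA genes of Rian in the table had 0 counts in every mouse. Complementary DNA was made from polyadenylated RNA, and several of the 8 lie on Rian exons, where read pairs are left unassigned by default. These zeros therefore show nothing about their level.

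Within the transcribed spans of Mirg, Mest, Meg3, H19, Rian, Rtl1 and Usp29 lie 29 microRNA genes of the table, and 4 of them had over 3 counts in a mouse. The same share over all microRNA genes was not taken. Several of the others, among them the 7 inside Rtl1 and Mir675 inside H19, lie on exons of their host. Read pairs on such bases are left unassigned by default, so the 0 counts of these genes show nothing about their level. Mir154 and Mir496a, inside Mirg, had 53 and 81 counts in mouse 2 and 0 in the others, and mouse 2 also had the most counts of Mirg. Mir369, also inside Mirg, had 13, 1, 7 and 4 counts. Mir335, in an intron of Mest, had 49 counts in mouse 3 and 0 in the others, and mouse 3 was also the highest for Mest. Reads on a hairpin in such libraries come from longer polyadenylated RNA and do not measure the mature microRNA. The mature sequences of these 4 genes are shown with miR-453, from a further gene inside Mirg, with the seed (bases 2 to 8) in capitals (RefSeq, GRCm38.p6).
mmu-miR-335-5p: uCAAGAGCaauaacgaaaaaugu
mmu-miR-335-3p: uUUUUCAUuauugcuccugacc
mmu-miR-154-5p: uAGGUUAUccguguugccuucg
mmu-miR-154-3p: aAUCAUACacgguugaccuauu
mmu-miR-369-5p: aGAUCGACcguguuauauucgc
mmu-miR-369-3p: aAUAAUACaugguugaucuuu
mmu-miR-496a-5p: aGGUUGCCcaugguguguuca
mmu-miR-453: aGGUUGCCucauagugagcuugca
mmu-miR-496a-3p: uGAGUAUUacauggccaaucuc
The seed of miR-496a-5p is that of miR-453, the only seed shared among the 54 mature microRNAs listed for the 29 genes, which carry 53 seeds.

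The Igf2-H19 domain was nearly silent. H19, the maternally expressed long noncoding RNA that hosts miR-675, had 79 counts (3.11 TPM) in mouse 4 and 0 in the other 3 mice. Its paternally expressed neighbour Igf2, not one of the 36 genes but the growth factor of the domain, had 8, 32, 0 and 1 counts. No mouse had over 3 counts of both genes, and how often this holds for other genes of like level was not determined.

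In the Kcnq1 domain the paternally expressed noncoding RNA was present in every mouse, whereas Phlda2 and Kcnq1 had no counts and Slc22a18 was found in 1 mouse. The domain as a whole was not silent, since genes of it outside the main list had counts. Osbpl5 stood at 7.76, 14.2, 19.9 and 1.10 TPM in mice 1 to 4, and Cdkn1c at 6.41, 0, 7.72 and 14.4 TPM. Tssc4 and Cd81 were found in every mouse, with means of 51.0 and 545 TPM. Ascl2 had 0, 118, 0 and 206 counts. Kcnq1ot1, an unspliced transcript of 93092 bases, had 1584, 1074, 509 and 641 counts, or 0.967, 1.04, 0.316 and 0.666 TPM. It lies wholly inside the span of Kcnq1, a potassium channel gene of the other strand, which had 0 counts in all 4 mice. Phlda2, a maternally expressed brake on placental growth, also had 0 counts in every mouse, so that Kcnq1ot1 per base was at least 2.04-fold to 6.36-fold higher across the mice against 3 counts of Phlda2. Slc22a18, an organic cation transporter gene beside Phlda2, had 354 counts (11.8 TPM) in mouse 1 and 0 in the other 3 mice. Mouse 1 also had the highest sum of the 6 erythroid markers, all with a median above 1 TPM, at 4980 TPM against 35.0, 1708 and 358 TPM. It was also highest for the summed neutrophil markers (30.7 against 19.7, 4.09 and 7.84 TPM) and chondrocyte markers (352 against 229, 226 and 219 TPM). Not every gene of the latter lists followed, since S100a9 was highest in mouse 2 and Col9a1 in mouse 3. The part of any such cells in the Slc22a18 value was not tested.

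In the Peg3 cluster the genes that flank Peg3 fell well below it. Usp29, a paternally expressed ubiquitin-specific protease gene, had 121, 0, 0 and 52 counts (0.380 TPM in mouse 1). Zim1, the maternally expressed zinc finger neighbour, had none in any mouse, which put Peg3 at least 50.8-fold to 149-fold above Zim1 per base, against 3 counts in each library. Peg3 and Usp29 are transcribed apart from starts 164 bases apart, and their promoter windows (250 bases before to 50 after the start) share 263 bases. Both windows are shown because the same stretch stood before a gene found in 4 mice and before one found in 2, with CG dinucleotides in capitals (RefSeq, GRCm38.p6).
Peg3, chr7:6730370-6730669, minus strand: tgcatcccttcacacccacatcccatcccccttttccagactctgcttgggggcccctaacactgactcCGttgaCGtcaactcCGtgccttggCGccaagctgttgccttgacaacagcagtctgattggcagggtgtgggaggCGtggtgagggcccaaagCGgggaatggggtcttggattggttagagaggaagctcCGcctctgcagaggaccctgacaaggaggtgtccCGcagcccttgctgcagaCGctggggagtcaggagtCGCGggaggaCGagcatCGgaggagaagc
Usp29, chr7:6730333-6730632, plus strand: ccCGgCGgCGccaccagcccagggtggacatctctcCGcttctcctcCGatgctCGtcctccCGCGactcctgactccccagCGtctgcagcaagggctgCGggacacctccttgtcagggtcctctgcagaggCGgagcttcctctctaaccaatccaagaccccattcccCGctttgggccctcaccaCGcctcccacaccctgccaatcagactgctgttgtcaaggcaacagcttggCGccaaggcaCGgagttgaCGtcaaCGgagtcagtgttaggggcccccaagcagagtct
The Peg3 window holds 13 CG dinucleotides and the Usp29 window 17.

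In the Snrpn-Ube3a domain, the counterpart of the human Prader-Willi and Angelman region, the paternally expressed genes were each found in few mice. Ndn, which encodes the growth suppressor necdin, had 0, 442, 0 and 15 counts (10.8 TPM in mouse 2). Mkrn3, a makorin ubiquitin ligase gene, had 104, 0, 337 and 0 counts (2.32 and 7.66 TPM in mice 1 and 3), and Snrpn, a splicing protein gene, had 118 counts (3.16 TPM) in mouse 3 and 0 elsewhere. Ndn, Mkrn3 and Snrpn therefore had their highest values in mice 2 and 3, and no mouse had counts of both Ndn and Mkrn3. Such gaps were common, since 52.2% of genes of like level with at least 50 counts in a library had at most 3 in another. How often 2 such genes miss each other was not determined. Magel2, a ubiquitin ligase partner beside Ndn, had 0 counts throughout. Snurf also had 0 counts, but 100% of its exonic bases lie within exons of other genes, where read pairs are left unassigned by default, so that its 0 shows nothing about its level. Of the longest Snrpn transcript 42.8% has near-identical copies elsewhere, which makes its count uncertain. Mouse 2 also had the highest sum of the 4 pericyte and smooth muscle markers, 2 of them with a median above 1 TPM, at 29.6 TPM against 2.96, 2.08 and 11.6 TPM. Nearly all of that sum was Rgs5, with 0, 1470, 0 and 138 counts, whereas Cspg4 was lowest in mouse 2 (0.558 TPM), Myh11 was found in mouse 4 alone and Acta2 had 0 counts in every mouse. All 4 adipocyte markers, Adipoq, Lpl, Cebpa and Pparg, were also highest in mouse 2, with a sum of 962 TPM against 199, 439 and 234 TPM in mice 1, 3 and 4. The part of such cells in the Ndn value was not tested.

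In the Mest and Igf2r-Airn clusters the order of the neighbours changed from mouse to mouse. Mest, a paternally expressed hydrolase gene of mesodermal tissue, stood at 0.0288, 3.33, 9.48 and 6.21 TPM. Its maternally expressed neighbour Copg2, a coat protein subunit of Golgi vesicles, stood at 8.77, 0, 2.29 and 2.48 TPM. Mouse 1 thus had the most Copg2 and 2 counts of Mest, and mouse 2 had 146 counts of Mest and none of Copg2. The ends of both genes overlap on opposite strands over 912 exonic bases. Airn, the paternally expressed noncoding RNA that silences Igf2r on its own chromosome, stood at 4.87, 0.0250, 13.7 and 8.58 TPM, while Igf2r was found in all mice. In mouse 2, the library with 1 count of Airn, Igf2r was at its lowest, but mouse 2 was the lowest mouse for 8 of the 12 expressed members and for 35.0% of all genes with a median above 1 TPM. Of the exonic bases of Airn 3.17% lie within the span of Igf2r and 20.6% within that of Mas1, a receptor gene on the other strand that had 247 counts in mouse 3, the highest mouse for Airn, and 0 in the others.

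In 7 pairs of neighbours with opposite parental expression the difference in log2(TPM + 1) was taken within each mouse. Sgce was above its maternally expressed neighbour Ppp1r9a, a neurabin gene, in 4 of 4 mice, with a mean difference of 3.93 ± 0.65 (SD, n = 4). The exact two-sided permutation test gave p = 0.125, the smallest p that 4 mice allow, and p = 0.292 after adjustment over the 7 pairs. With a pseudocount of 0.1 in place of 1 the mean was 6.09. Zim1 and Phlda2 had 0 counts in every mouse, so the sign of Peg3 minus Zim1 (1.75 ± 0.27) and of Phlda2 minus Kcnq1ot1 (-0.78 ± 0.29) was given by these zeros, and the test adds nothing. Their size was set by the pseudocount, with 4.62 and -2.98 at a pseudocount of 0.1, and the bounds against 3 counts given above hold in its place. For Mest minus Copg2 the mean was 0.40 ± 2.47, with Mest above in 3 mice and below by 3.25 in mouse 1, and the mean was -0.18 without mouse 2 and -0.027 without mouse 3. For Igf2r minus Airn it was 0.52 ± 1.32, with Igf2r above in 2 mice and below in 2. That mean was -0.064 without mouse 2 and -0.44 with the longest transcript as length, while without division by length it was 1.93 ± 1.53 (exact permutation p = 0.125). The means of H19 minus Igf2 and Meg3 minus Dlk1 were 0.33 ± 1.15 and 0.06 ± 0.19, and without mouse 4 and mouse 1 they were -0.23 and -0.029. The spread between mice exceeded the mean difference in these 4 pairs, with exact permutation p between 0.75 and 1. Both genes had 0 counts in mouse 3 for H19 minus Igf2, and in mice 2 and 3 for Meg3 minus Dlk1. The difference was 0 there, which raises the smallest p possible, so the test says little about these pairs.

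**Figure D3:**
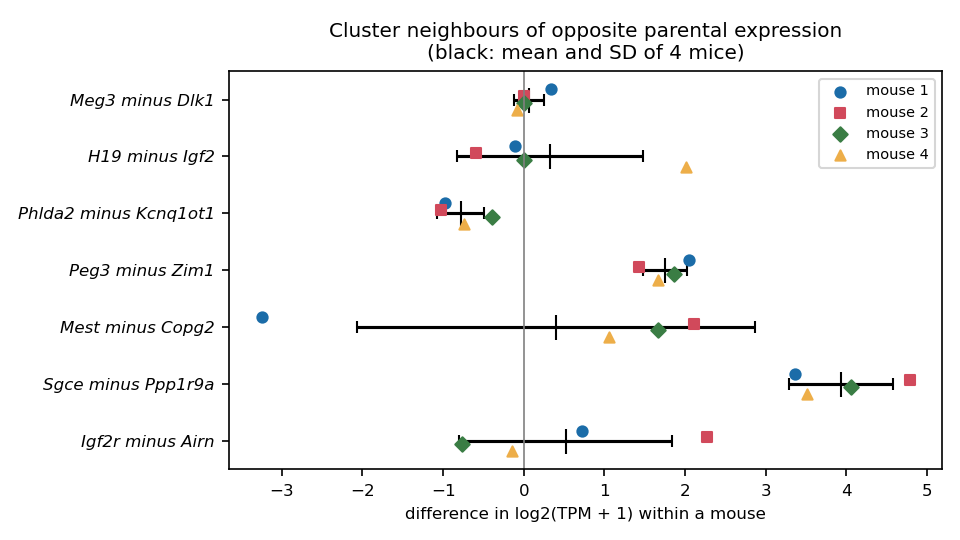
Difference in log2(TPM + 1) within each mouse between cluster neighbours expressed from opposite parental alleles, with the mean and SD of 4 mice in black. Sgce lies above Ppp1r9a in all 4 mice, Zim1 and Phlda2 are at 0 counts in all of them, and mouse 1 lies at -3.25 for Mest minus Copg2 and the other mice between 1.05 and 2.11.

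The other single loci and pairs were low. Zrsr1, a retrogene for a splicing factor inside the span of Commd1, had 80, 0, 222 and 11 counts (1.01, 0, 2.86 and 0.237 TPM), while its host Commd1, transcribed from the other strand, stood at 25.3, 17.6, 24.7 and 24.6 TPM. Nnat, the neuronal membrane protein neuronatin inside the span of Blcap, had 1 count in mouse 3 and none elsewhere, while Blcap, named after its values were seen, stood at 19.3, 20.7, 20.4 and 13.8 TPM. In both cases the host was present in every mouse, whereas Zrsr1 had over 3 counts in mice 1, 3 and 4 and Nnat in none. Nap1l5, a nucleosome assembly gene inside Herc3, had 22 counts in mouse 1 and 0 elsewhere, and Herc3 had 1, 18, 0 and 0. Ppp1r9a had 77, 9, 0 and 92 counts and Inpp5f, an inositol phosphatase gene, 92, 3, 35 and 28, with all of them under 1 TPM. Peg10, a retrotransposon-derived gene that shares its promoter region with Sgce, had 8, 7, 1 and 0 counts, although Sgce had at least 1906 in each mouse. Ddc, the decarboxylase beside Grb10, had at most 6 counts, Slc38a4, an amino acid transporter gene, at most 12 and Zdbf2, a zinc finger gene, at most 1.

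Of the 24 imprinted genes with at least 50 counts in a library, 15 had at most 3 counts in another, namely Meg3, Rian, Mirg, H19, Slc22a18, Usp29, Ndn, Mkrn3, Snrpn, Inpp5f, Mest, Copg2, Ppp1r9a, Airn and Zrsr1. Over all 15299 genes with at least 50 counts in a library this share was 40.5%, and over the 11227 whose highest TPM lay in the range of the imprinted genes, 0.261 to 28.1 TPM, it was 52.2%. The share of the imprinted genes, 62.5% of 24, lay near that of genes of like level and was not tested against it. At most 3 counts were found for 11 of the 24 genes in mouse 2, for 7 in mouse 3 and for 5 each in mice 1 and 4, beside 28.9%, 15.2%, 18.4% and 20.2% of all 15299 genes in mice 2, 3, 1 and 4. A value in 1 mouse stood apart from the other 3, by a gap above Dixon's 95% critical value, for 6 of the 24 genes, beside 24.3% of the 15299 genes.

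**Figure D4:**
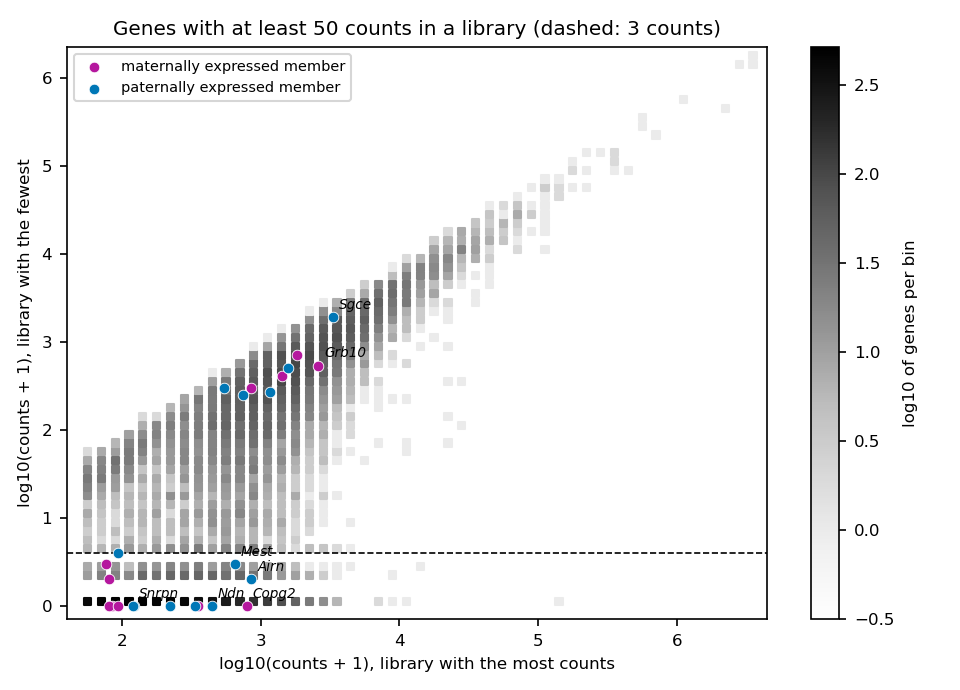
Counts in the library with the fewest against the library with the most, both as log10(counts + 1), for all 15299 genes with at least 50 counts in a library (grey bins) and the 24 imprinted genes among them (points), with 3 counts dashed. The 15 imprinted genes on or under the dashed line, Copg2, Airn, Mest and Ndn among them, lie apart from the 9 with at least 251 counts in every mouse.

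The promoters of the imprinted genes were compared by their letters. RefSeq windows of 300 bases were found for 31 of the 36 genes. These 31 genes had 46 windows, beside 32851 windows for 27025 genes in all. The imprinted genes thus had more windows per gene, which favours a higher top ratio and a match, and this was not adjusted for. Taking the window with the highest value for each gene, the ratio of observed to expected CG dinucleotides was above 0.6 in 16 of 31 genes (51.6%) and in 38.3% of 27025 genes, with 9 of 12 maternally and 7 of 19 paternally expressed genes above it. The motif TGCCGC, which the imprint-keeping zinc finger protein ZFP57 binds when methylated, was searched on both strands (GCGGCA on the other). At least 1 match was present in the windows of 11 of 31 genes (35.5%), namely Copg2, Grb10, Meg3, Mest, Nap1l5, Nnat, Plagl1, Snrpn, Snurf, Zdbf2 and Zim1, and of 13.1% of all genes. Among genes with the ratio above 0.6 the motif was in 9 of 16 imprinted genes and in 26.3% of all. Snrpn and Snurf share a window, and a match is a description of letters, not of a bound site. Windows are shown for Mest, Plagl1 and Grb10, the genes with a match that had a median above 1 TPM beside Copg2, with matches in capitals.
Mest, chr6:30737803-30738102, plus strand: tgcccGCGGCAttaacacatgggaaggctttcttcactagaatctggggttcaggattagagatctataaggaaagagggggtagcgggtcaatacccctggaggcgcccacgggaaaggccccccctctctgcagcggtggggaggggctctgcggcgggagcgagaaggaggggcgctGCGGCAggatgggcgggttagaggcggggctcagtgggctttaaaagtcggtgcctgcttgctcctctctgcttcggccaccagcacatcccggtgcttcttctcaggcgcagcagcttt
Plagl1, chr10:13090582-13090881, plus strand: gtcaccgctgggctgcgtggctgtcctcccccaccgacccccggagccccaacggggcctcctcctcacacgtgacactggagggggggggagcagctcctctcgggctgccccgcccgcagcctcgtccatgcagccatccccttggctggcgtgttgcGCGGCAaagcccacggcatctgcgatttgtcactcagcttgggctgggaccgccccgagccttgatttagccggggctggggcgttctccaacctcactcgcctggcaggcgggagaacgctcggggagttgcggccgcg
Grb10, chr11:12037371-12037670, minus strand: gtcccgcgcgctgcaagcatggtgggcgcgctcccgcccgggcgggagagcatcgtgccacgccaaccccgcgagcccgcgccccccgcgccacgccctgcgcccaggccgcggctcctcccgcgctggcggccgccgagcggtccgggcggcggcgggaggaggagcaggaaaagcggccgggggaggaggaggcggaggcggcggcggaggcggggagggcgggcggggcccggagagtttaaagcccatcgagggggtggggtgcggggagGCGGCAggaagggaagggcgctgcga
The Mest window holds 2 matches and the other windows hold 1 each, whereas Sgce had no entry, and Igf2r, Ube3a, Gnas and Peg3 had windows without a match.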

How the data were processed

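The deposited file holds raw read counts per gene, which the authors made with STAR 2.7.10 and featureCounts (Subread 1.6.5) on GRCm39 per the labels. The stated counting options held neither a strand setting nor one for reads on several genes, so that by default strand was not used and pairs on exons of several genes were left unassigned. Counts were divided by the exonic length of each gene (GENCODE M21, GRCm38) and scaled to 1000000 per library. No length was found for 4855 of the 56980 genes. An imprinted gene was called expressed at a median above 1 TPM, and 7 pairs of neighbours were tested on log2(TPM + 1) with an exact permutation of signs and Benjamini-Hochberg adjustment. TMM factors came from edgeR 4.0.16, and copies from BLAST 2.17.0 (95% identity over 100 bases). TPM scripts were tested on simulated data. Coordinates and sequences are of GRCm38. Values in every mouse are given for genes with a median above 10 TPM, for the pairs, and for genes with a mouse apart, and for further genes as the text needed; others by range. The 36 genes and all lists were chosen with earlier results of these data known. No source says whether the 4 libraries were prepared on separate days.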

Additional observations from a re-analysis of the deposited data

Results flagged for a closer look

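In 6 of 33 values compared over the 4 mice (24 genes, 7 pair differences and 2 sums) the highest or lowest mouse lay far from the rest. The distance to the next mouse, divided by the distance between the lowest and the highest mouse, passed the 95% critical value of Dixon's test in these 6. About 1.65 of 33 would do so by chance for independent, normally spread values, which counts with many zeros are not. Of all 15299 genes with at least 50 counts in a library 24.3% did, and of the 24 imprinted genes 25%. All 6 are genes with at most 15 counts in each of the other mice. H19 in mouse 4, Slc22a18 in mouse 1 and Snrpn in mouse 3 had a gap of 1, since the other 3 mice were at 0 counts. Meg3 in mouse 1 had a gap of 0.979, Ndn in mouse 2 a gap of 0.963 and Rian in mouse 4 a gap of 0.945.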

How the results depend on the processing

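With a mark of 5 TPM in place of 1 TPM, 5 in place of 12 imprinted genes had a median above it and 2 in place of 8 were above it in every mouse. The other alternatives gave between 8 and 17 genes by the median, with 17 when counts were scaled to 1000000 without length and 8 when 10 counts or more were required in each library, and between 8 and 10 genes above the mark in all mice. With the longest transcript as length the paternal sum was 76.7 in place of 52.5 TPM, Igf2r minus Airn turned to -0.44, and the means of Sgce, Grb10, Ube3a, Airn and Gnas rose beyond 1 SD, to 34.5, 17.5, 6.70, 13.9 and 8.06 TPM. The other mean levels moved by less than 1 SD, but for genes seen mostly in 1 mouse that SD is too wide to show a change. Without their highest mouse the means of Slc22a18, H19 and Snrpn fell to 0 TPM, that of Ndn from 2.79 to 0.131, Mkrn3 from 2.49 to 0.774, Copg2 from 3.38 to 1.59 and Airn from 6.80 to 4.49 TPM. Leaving out 1 mouse turned the sign of 4 pairs: Meg3 minus Dlk1 ranged from -0.029 to 0.11, H19 minus Igf2 from -0.23 to 0.63, Mest minus Copg2 from -0.18 to 1.61 and Igf2r minus Airn from -0.064 to 0.95. Sgce minus Ppp1r9a, Peg3 minus Zim1 and Phlda2 minus Kcnq1ot1 kept their sign under all alternatives tried, the last 2 because Zim1 and Phlda2 had no counts, but not their size. With a pseudocount of 0.1 they were 6.09, 4.62 and -2.98, and without length 5.26, 3.83 and -4.80. Igf2r minus Airn without length was 1.93.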

Other observations

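A second list of 36 imprinted or imprint-related genes, of which 35 were in the table, held 20 genes (57.1% of 35) with a median above 1 TPM, beside 33.3% of the 36 genes of the report, 22.9% of all genes with a length and 44.2% of protein-coding genes. This difference was not tested. Dcn, the matrix proteoglycan decorin, which is imprinted in mouse placenta, was the highest at 2722 ± 820 TPM (SD, n = 4), followed by Cd81, a tetraspanin of the Kcnq1 domain, at 545 ± 60.4 TPM. H13, a signal peptide peptidase, stood at 70.9 ± 30.5 TPM and Tssc4, a splicing factor gene, at 51.02 ± 19.04 TPM. Trim28, the corepressor that keeps imprints with zinc finger proteins, stood at 26.3 ± 11.1 TPM, whereas its partner gene Zfp57 had 0 counts in all 4 mice. Cdkn1c, a maternally expressed cell cycle inhibitor of the Kcnq1 domain, had 230, 0, 272 and 304 counts, so that it too was missing in mouse 2. Its values were looked at after the others were seen.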
